A study of Rattus norvegicus with 20 samples.

Results

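A list of 33 rat genes of cholesterol and fatty lipid metabolism was measured in globular bushy cells of the cochlear nucleus at 3 postnatal ages. The genes were chosen by name, with earlier results of these data known, so their shares beside a background are a description and not a test. A probe set of the array, a small group of probes read out as 1 value, belongs here if the platform annotation gives it exactly 1 gene and that gene is on the list, with Msmo1 also accepted under its older name Sc4mol. The rule found 54 probe sets of 31 genes, among 31099 probe sets and 14218 singly annotated genes on the array, whereas Hmgcs1 and Npc1 were not analysed here. Of these, 47 probe sets, with at least 1 for each of the 31 genes, passed a filter on dim signal (above log2 4 on at least 5 of 15 arrays). A gene is described by its tested probe set with the highest mean, and 18 genes had more than 1 probe set.

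The cells came from Sprague Dawley rats at postnatal days 3 (P3, 6 arrays), 8 (P8, 9 arrays) and 21 (P21, 5 arrays), 1 animal per array, with no other treatment or genotype between the groups. P3 is close to when the giant calyx of Held terminal forms on the target neuron, P8 is a juvenile stage and P21 a mature one. All animals received cholera toxin B, a tracer carried back along the axon, on the opposite side of the brainstem, and were killed 24 hours later. From 12 µm frozen sections 200 labelled cells per animal were cut out with a laser, so that glial processes and myelin touching a cell could enter the sample, and the RNA was amplified linearly in 2 rounds. Every value below is a level, log2(intensity + 1), or a difference of group means on that scale, with 1 unit standing for a doubling except in dim probe sets, where the added 1 understates changes.

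Brain cells make nearly all of their own cholesterol, because lipoproteins do not cross the blood-brain barrier. The mevalonate arm builds isoprenoid units from acetyl-CoA, and the sterol arm turns farnesyl diphosphate into squalene, closes the ring to lanosterol and trims it to cholesterol. Transcription of both arms is driven by SREBP-2, the product of Srebf2, which Scap escorts from the endoplasmic reticulum to the Golgi for cleavage when sterol is scarce, while Insig1 and Insig2 hold the complex back when sterol is plentiful. In the developing brain myelinating oligodendrocytes are the largest consumers of new cholesterol, astrocytes supply it on apolipoprotein E, and neurons remove the excess by hydroxylation through Cyp46a1.

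P8 replicates 5 to 9 differed from the remaining 15 arrays as a block, so P8 means replicates 1 to 4 in every comparison below, and the 5 others are given separately. Their median intensity was 58.9 to 67.5, against 23.8 to 32.5 on the other arrays. Among markers of the neuron itself, 12 of 17 bushy cell and fast auditory neuron genes were higher at P21 than at P3 and the others did not pass the test, among them the vesicular glutamate transporter Slc17a6 at 11.13, 11.47 and 11.28 at P3, P8 and P21, which matches a glutamatergic cell. Markers of oligodendrocytes moved with age as well: their summed intensity over 17 genes was 1492 to 3152 at P3, 7396 to 10679 at P8 and 9098 to 12870 at P21. At P3 10 of those 17 markers averaged above log2 4, at P8 and P21 all 17 did, and 16 were called higher at P21 than at P3. Their part in the results below was not tested beyond the covariate values given, and in such pooled cells a change in the number of cells of a type cannot be told apart from a change in RNA per cell. Astrocyte markers were bright at every age. Their summed intensity over 11 genes was 6142 to 11849 at P3, 6001 to 9689 at P8 and 7305 to 9006 at P21, and their part was not tested.

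From P3 to P21 the sterol and lipid genes shifted upwards, led by the sterol carrier Stard4 (+1.99), the sterol sensor Insig1 (+1.51), the phospholipid enzyme Cds1 (+1.48) and the synthesis enzymes Sc5d, Fdft1 and Mvd (+1.22, +1.18 and +1.17). Abca1, the exporter of cholesterol, and Dhcr7, a reductase of the closing steps, moved down, by -1.73 and -0.80. In limma with Benjamini-Hochberg adjustment over all 21468 tested probe sets, 17 of the 47 probe sets rose, 3 fell and 27 did not pass an adjusted p of 0.05. That is 36.2% higher and 6.38% lower, against a background of 18.6% higher and 18.2% lower among all tested probe sets. The median change was 0.27 over the 47 and 0.03 over all tested probe sets. All P21 arrays lay above all P3 arrays in 11 of the 47 probe sets and below them in 2, and the background of such separation was 14% upwards and 13.2% downwards.

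By count and by median, the rise was larger between P8 and P21 than between P3 and P8. In that interval 11 probe sets rose (23.4%, background 7.97%) and 0 fell (background 7.93%) by limma with Benjamini-Hochberg adjustment; at an unadjusted p under 0.05, 16 were higher and 4 lower, the latter from Abca1, Cyp46a1, Insig2 and Scap, and 15.9% and 13.9% of all tested probe sets were. The median change was 0.32, against 0.07 over all tested probe sets, and the ages did not overlap in 7 probe sets, all higher at P21 (background 7.04% upwards and 6.4% downwards). Between P3 and P8, by contrast, 4 probe sets rose (8.51%, background 6.96%) and 3 fell (6.38%, background 7.61%), which is close to the background. There the median was -0.03, against -0.02 over all tested probe sets, and 3 probe sets separated upwards and 3 downwards (background 6.76% and 6.83%). The mevalonate arm differed from the whole list, with a median over its 8 probe sets of 0.37 from P3 to P8 and 0.20 from P8 to P21. Over its 6 genes these medians were 0.37 and 0.44. The intervals differ in length. They also share the P8 arrays, so a low P8 array alone moves the changes of a gene in opposite directions. Without P8 replicate 3, the array whose removal moved both medians most, they were 0.04 from P3 to P8 and 0.22 from P8 to P21.

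**Figure D1:**
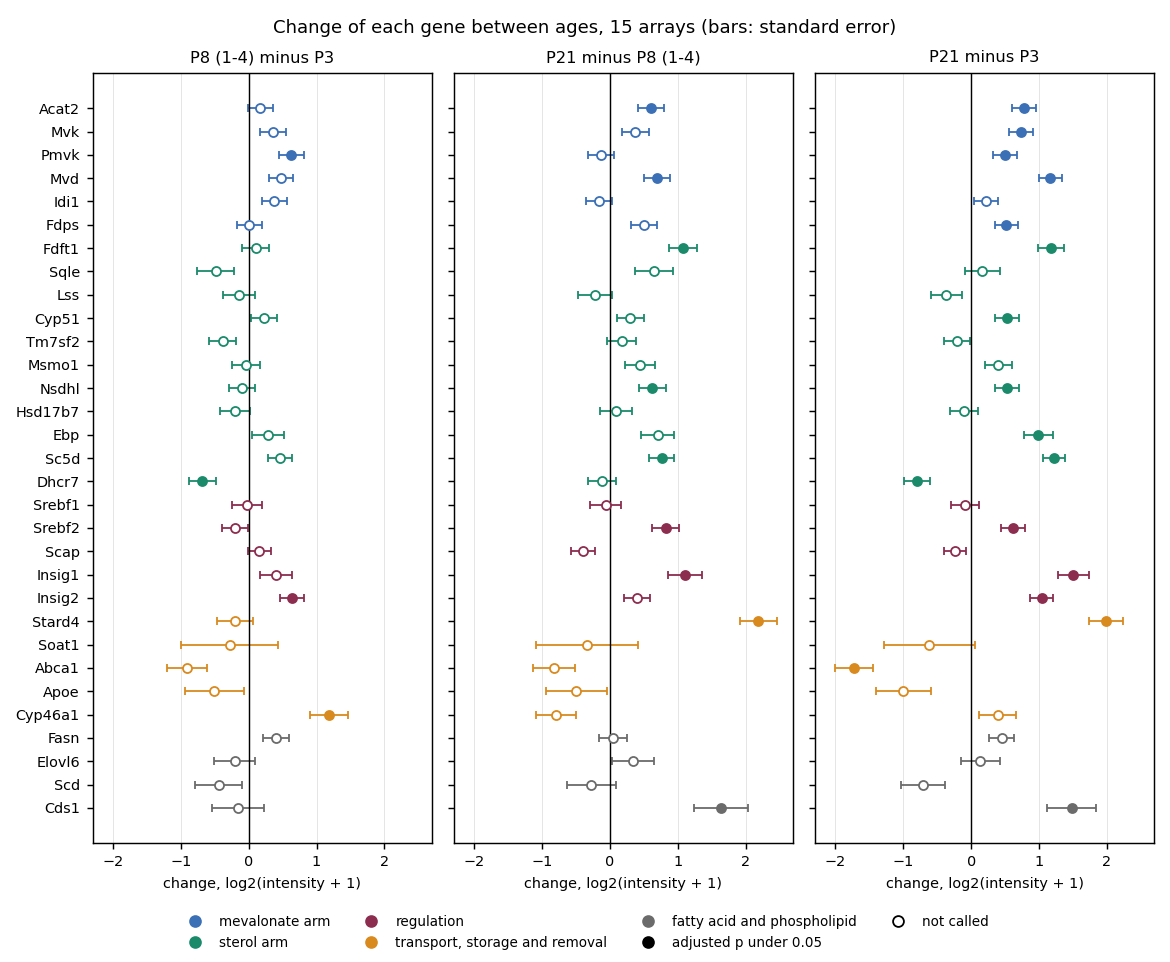
Change of each of the 31 genes between ages on the x axis, in log2(intensity + 1), with bars of 1 standard error from the fit over 15 arrays; filled points passed an adjusted p of 0.05, and colours give the role. The right-hand panel, P21 minus P3, has 15 filled points to the right of 0 and 2, Dhcr7 and Abca1, to the left.

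With each array's mean oligodendrocyte marker level as a covariate, limma called 0 of the 47 probe sets for P21 against P3 and 0.0978% of all tested probe sets. At an unadjusted p under 0.05 that fit had 5 of the 47 higher and 0 lower, and 13% of all tested probe sets. For P21 against P8, where the marker levels of the ages lay closer together, 7 were called higher with that covariate, and Stard4, Fdft1, Insig1, Srebf2 and Cds1 each kept an adjusted p from 0.00163 to 0.0409. Mvd lost its call there (0.67, adjusted p = 0.0923), and 5.85% of all tested probe sets were called higher. The GAPDH 3' minus 5' difference, which is larger where fewer copies reach the 5' end, moved with age too and averaged 2.91 ± 0.27 (SD, n = 6) at P3, 3.27 ± 0.42 (SD, n = 4) at P8 and 3.99 ± 0.66 (SD, n = 5) at P21. The same difference for actin did not follow it, at 4.70 ± 0.30 (SD, n = 6), 4.29 ± 0.19 (SD, n = 4) and 4.32 ± 0.69 (SD, n = 5). With the GAPDH difference as a covariate 10 probe sets rose and 2 fell from P3 to P21, and 10.5% and 9.62% of all tested probe sets did.

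**Figure D2:**
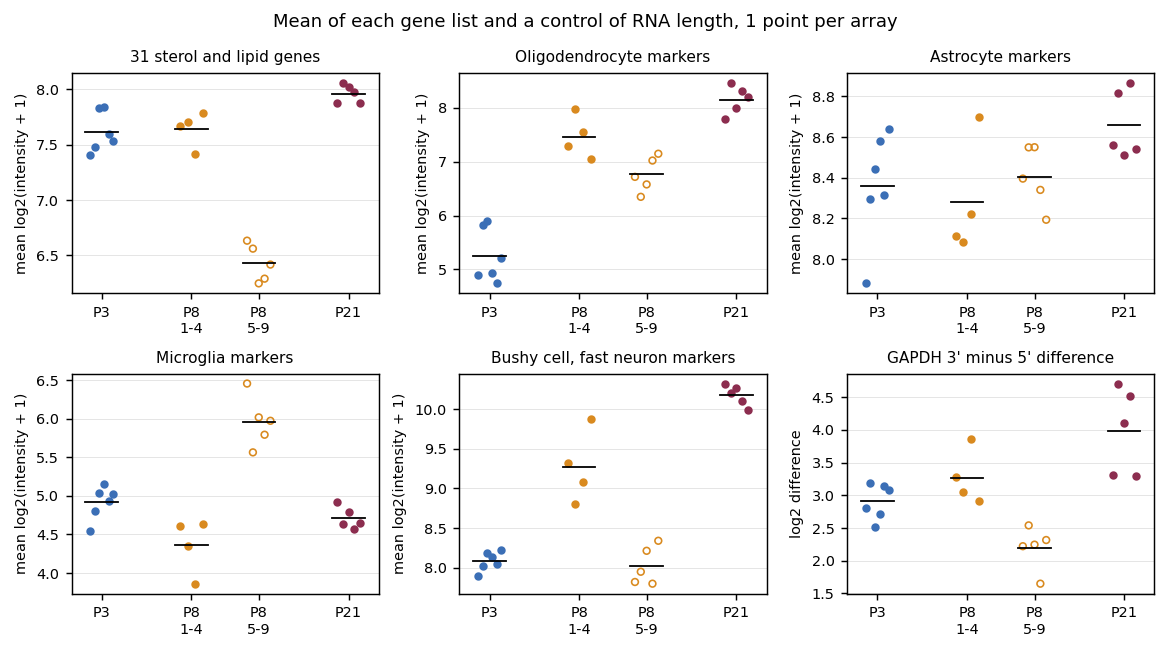
Each point is 1 array: the mean log2(intensity + 1) of the 31 sterol and lipid genes, of 4 marker lists, and the log2 difference between the 3' and 5' control probe sets of GAPDH; horizontal bars are group means and open points are P8 replicates 5 to 9. The 31 genes average 7.41 to 7.84 at P3, 7.42 to 7.79 at P8 and 7.87 to 8.06 at P21, while replicates 5 to 9 lie between 6.25 and 6.63.

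The starts of 3 genes that rose from P3 to P21, 1 each from the mevalonate arm, the sterol arm and the regulators, are shown because the letters CCAAT, bound by the factor NF-Y that acts beside SREBP-2 on sterol genes, were frequent among these promoters. They were chosen after the values were seen. Sequences are from the RefSeq promoter table of build GRCr8, 250 bases before and 10 after the start, 5′ to 3′ on the gene's strand, with CCAAT or its reverse complement ATTGG in capitals. Mvd lies at chr19:67414965-67415224 on the minus strand, Sc5d at chr8:51538268-51538527 on the minus strand and Insig1 at chr4:8057760-8058019 on the minus strand.
Mvd: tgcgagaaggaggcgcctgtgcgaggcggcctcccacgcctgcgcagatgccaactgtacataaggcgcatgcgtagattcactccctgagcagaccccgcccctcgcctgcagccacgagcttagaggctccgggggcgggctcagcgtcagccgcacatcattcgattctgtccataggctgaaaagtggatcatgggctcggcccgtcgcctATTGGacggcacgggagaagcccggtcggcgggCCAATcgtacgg
Sc5d: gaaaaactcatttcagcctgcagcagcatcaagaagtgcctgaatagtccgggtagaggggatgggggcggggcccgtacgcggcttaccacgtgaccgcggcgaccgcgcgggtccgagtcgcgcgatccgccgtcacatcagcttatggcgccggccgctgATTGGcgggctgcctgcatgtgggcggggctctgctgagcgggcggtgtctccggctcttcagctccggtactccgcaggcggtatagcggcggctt
Insig1: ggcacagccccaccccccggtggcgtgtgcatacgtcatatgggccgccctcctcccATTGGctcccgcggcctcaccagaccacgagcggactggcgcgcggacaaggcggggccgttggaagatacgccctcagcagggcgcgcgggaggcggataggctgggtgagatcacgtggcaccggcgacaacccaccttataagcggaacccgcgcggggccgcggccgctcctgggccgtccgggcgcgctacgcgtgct

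Mvd holds 2 matches in this stretch, and Sc5d and Insig1 hold 1 each. Over windows of 250 bases before to 50 after the start, on both strands, CCAAT was in 17 of the 25 genes that matched the table (68.0%) and in 37.8% of 27457 promoters. Besides genes that rose from P3 to P21, these 17 include Idi1, Lss, Tm7sf2, Msmo1, Hsd17b7, Srebf1, Soat1 and Cyp46a1, which did not pass. Acat2, Cyp51 and Cds1 rose and had no match, so the letters were not particular to the genes that rose. The GC box GGGCGG, the core of Sp1 sites, was in 20 of the 25 (80.0%), against 34.9%, and the E-box CACGTG, which reads the same on both strands, in 4 (16%), against 6.64%. A loose form of the sterol regulatory element, TCACNCCAC, was in none of the 25, against 1.12% of all promoters, which says only that these letters are not in these windows. The 27457 promoters are 1 per gene of the whole promoter table, at the most upstream start. They were not limited to genes on the array or above its filter, so the shares compare unlike sets of genes. Matches of different motifs may share bases, and a match is a description of the letters, not a site. Pmvk, Fdft1, Sqle, Stard4, Fasn and Elovl6 had no entry.

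In the mevalonate arm 5 of 6 genes rose from P3 to P21, with a median change of 0.63, and Idi1 did not pass. By probe set 5 of 8 rose (62.5%, background 18.6% of all tested probe sets). Mvd encodes the decarboxylase that makes isopentenyl diphosphate, the isoprenoid unit itself. Its level was 5.62, 5.70 and 6.43 at P3 (lowest, median and highest of 6), 6.26, 6.31, 6.18 and 6.52 at P8, and 7.38, 6.91, 7.03, 7.03 and 6.68 at P21. Every P21 array lay above every P3 and every P8 array, and P3 and P8 overlapped through 1 high P3 array. Mvd rose 2.24-fold from P3 to P21 (1.17 ± 0.17 SE, limma adjusted p = 9.34e-05) and 1.61-fold from P8 (0.69 ± 0.19 SE, limma adjusted p = 0.0227). The latter call was lost without P8 replicate 3 (adjusted p = 0.0559) and also without P21 replicate 1.

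Acat2, the cytosolic thiolase that joins acetyl-CoA at the head of the pathway, stood at 8.66, 8.92 and 9.10 at P3 (lowest, median, highest), at 8.80, 9.08, 9.56 and 8.86 at P8, and at 9.50, 9.98, 9.87, 9.75 and 9.32 at P21. P3 and P21 did not overlap, and 1 P8 array reached into the P21 range. The change from P3 to P21 was 0.78 ± 0.17 (SE), a 1.71-fold rise (limma adjusted p = 0.0026), and from P8 it was 0.61 ± 0.19 (limma adjusted p = 0.0429). The P21 against P3 call of Acat2 did not pass with the GAPDH difference as a covariate (0.42, adjusted p = 0.219).

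Mvk phosphorylates mevalonate. At P3 its lowest, median and highest arrays read 5.48, 5.79 and 6.00, at P8 the values were 6.27, 6.02, 5.66 and 6.53, and at P21 they were 6.64, 6.18, 6.45, 6.33 and 6.87. The P21 arrays all lay above the P3 arrays, with P8 spread across both. Mvk rose 1.66-fold from P3 to P21 (0.74 ± 0.18 SE, limma adjusted p = 0.00486), whereas neither step through P8 passed. Its dimmer tested probe set 1387119_at did not pass for P21 against P3 (0.27, limma adjusted p = 0.223).

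Pmvk, the next kinase, and Fdps, the synthase of farnesyl diphosphate, rose by less, and their ages overlapped. Pmvk was at 7.78 ± 0.29 (SD, n = 6) at P3, 8.40 ± 0.14 (SD, n = 4) at P8 and 8.28 ± 0.30 (SD, n = 5) at P21, and it passed for P8 against P3 (0.62 ± 0.18 SE, limma adjusted p = 0.035) and for P21 against P3 (0.50 ± 0.17 SE, limma adjusted p = 0.0345). Fdps was at 8.65 ± 0.28, 8.66 ± 0.33 and 9.17 ± 0.18 (SD) in the same order and passed for P21 against P3 alone (0.52 ± 0.17 SE, limma adjusted p = 0.0287). Idi1, the isomerase between the isoprenoid units, was at 8.27 ± 0.28, 8.64 ± 0.30 and 8.48 ± 0.22 (SD), and its changes passed in no comparison.

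Of the 11 genes of the sterol arm 5 rose from P3 to P21 (45.5%), Dhcr7 fell (9.09%) and 5 did not pass. By probe set, the unit of the background, 6 of 17 rose (35.3%, background 18.6%) and 1 fell (5.88%, background 18.2%). Fdft1 encodes squalene synthase, the first step committed to sterols. Its level was 7.25, 7.96 and 8.18 at P3 (lowest, median, highest), 7.67, 8.22, 8.30 and 7.67 at P8, and 9.11, 9.32, 8.96, 9.06 and 8.79 at P21. P3 and P8 overlapped, and all P21 arrays lay above both. Fdft1 rose 2.26-fold from P3 (1.18 ± 0.19 SE, limma adjusted p = 2.15e-04) and 2.11-fold from P8 (1.08 ± 0.21 SE, limma adjusted p = 0.00309).

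Sc5d encodes the desaturase that acts on lathosterol shortly before cholesterol. The P3 arrays ranged from 8.69 through a median of 8.89 to 9.10, the P8 arrays were at 9.18, 9.81, 9.07 and 9.41, and the P21 arrays were at 10.26, 10.33, 10.14, 10.22 and 9.72. P21 was clear of P3, while 1 P8 array lay just above the lowest P21 array. The difference was 1.22 ± 0.16 (SE) between P3 and P21, or 2.34-fold (limma adjusted p = 3.82e-05), and 0.76 ± 0.18 (SE) between P8 and P21 (limma adjusted p = 0.0101).

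Dhcr7, the reductase of the closing step of the branch that runs through lathosterol, went the other way. It read 8.92, 9.25 and 9.33 at P3 (lowest, median, highest), 8.16, 8.55, 8.20 and 9.02 at P8, and 8.24, 7.94, 8.78, 8.55 and 8.36 at P21. The lower level was already present at P8, where 3 of 4 arrays lay below all P3 arrays. Dhcr7 fell by 0.80 on the log2 scale from P3 to P21 (SE 0.19, limma adjusted p = 0.00372) and by 0.69 from P3 to P8 (SE 0.20, limma adjusted p = 0.0322). Between P8 and P21 the difference of -0.11 did not pass (limma adjusted p = 0.768), and with the GAPDH covariate P21 against P3 did not either (-0.59, adjusted p = 0.149).

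Ebp, the isomerase of the sterol ring, was dim, with P21 above P3 without overlap and P8 overlapping both, at 4.74 ± 0.30 (SD, n = 6) at P3, 5.02 ± 0.52 (SD, n = 4) at P8 and 5.73 ± 0.26 (SD, n = 5) at P21. It rose by 0.99 ± 0.22 (SE) from P3 to P21 (limma adjusted p = 0.00231). Cyp51, the lanosterol demethylase, and Nsdhl, a dehydrogenase of demethylation, overlapped between ages and both changed by 0.53 ± 0.18 (SE) from P3 to P21 (limma adjusted p = 0.0307 and 0.0282). The Cyp51 probe set is of a type that may also match other transcripts, and the further probe set of Cyp51 gave 0.37 (limma adjusted p = 0.0652). The further probe set of Nsdhl, 1392604_at, gave 0.20 (limma adjusted p = 0.511).

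The other 5 enzymes of this arm passed in no comparison. Sqle, the squalene epoxidase regarded as a control point of the pathway, was at 8.86 ± 0.23, 8.37 ± 0.71 and 9.03 ± 0.33 (SD) at P3, P8 and P21, and the wide P8 spread came from replicate 3 at 7.33. Msmo1, which oxidises methyl groups of the ring, differed by 0.40 between P3 and P21 (limma adjusted p = 0.127). Lss, the lanosterol synthase, Tm7sf2, a sterol reductase, and Hsd17b7, a reductase of demethylation, differed by -0.36, -0.21 and -0.11 between P3 and P21. Their ages overlapped and none passed (limma adjusted p = 0.219, 0.411 and 0.723). The further probe set of Hsd17b7, 1387233_at, changed by -1.03 from P3 to P8 without overlap but did not pass (limma adjusted p = 0.0873). From P8 to P21 it changed by 0.86 (limma adjusted p = 0.168).

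**Figure D3:**
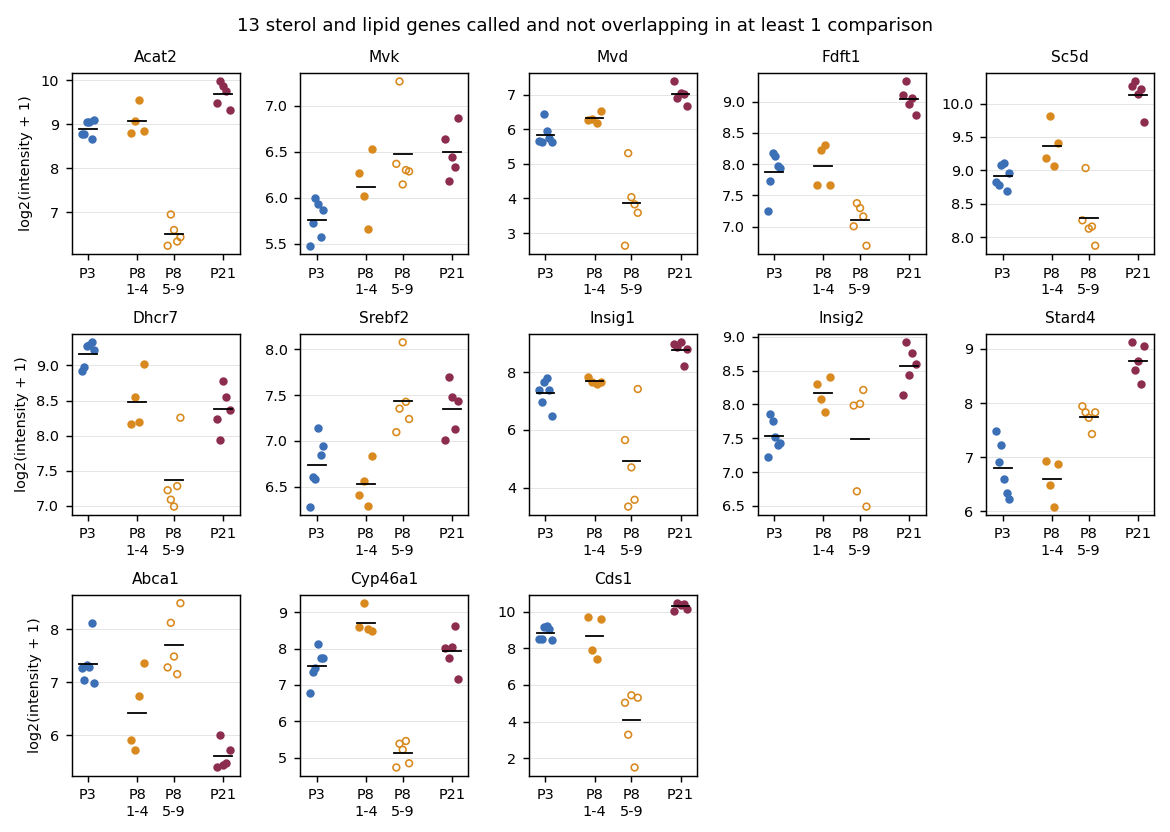
Level of 13 genes on each array, in log2(intensity + 1), by age; horizontal bars are group means, and open points are P8 replicates 5 to 9, which are not in the group means of P8. P21 lies above P3 in 9 panels without overlap, Abca1 and Dhcr7 lie below, and Cyp46a1 is highest at P8 replicates 1 to 4.

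Among the 5 regulators Insig1, Insig2 and Srebf2 rose from P3 to P21, and Srebf1 and Scap did not pass. By probe set 3 of 8 rose (37.5%, background 18.6% of all tested probe sets) and 0 fell (background 18.2%). Insig1, the sterol-responsive anchor that is itself a target of SREBP-2, was at 6.49, 7.39 and 7.81 at P3 (lowest, median, highest), at 7.84, 7.66, 7.59 and 7.66 at P8, and at 8.99, 8.90, 9.05, 8.21 and 8.80 at P21. The P8 arrays sat together near the highest P3 arrays, and all P21 arrays lay above both. Insig1 rose 2.84-fold from P3 to P21 (1.51 ± 0.22 SE, limma adjusted p = 9.74e-05) and 2.15-fold from P8 to P21 (1.10 ± 0.25 SE, limma adjusted p = 0.00724).

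Insig2, the anchor that is made without need of SREBP-2, had its difference earlier. Its P3 arrays ranged from 7.22 through a median of 7.47 to 7.86, its P8 arrays were at 8.30, 8.08, 7.89 and 8.40, and its P21 arrays at 8.14, 8.92, 8.43, 8.76 and 8.59. P8 and P21 both lay above all P3 arrays and overlapped each other. Insig2 rose by 0.64 ± 0.18 (SE) from P3 to P8 (limma adjusted p = 0.0302) and by 1.04 ± 0.17 (SE) from P3 to P21, or 2.05-fold (limma adjusted p = 2.49e-04). The P8 call was lost without any 1 of P3 replicates 1, 4, 5 or 6 or P8 replicates 1 or 4. The adjusted p was at most 0.0745 there, and it was 0.0686 with the GAPDH covariate. With the oligodendrocyte covariate the change was -0.09 (adjusted p = 0.988), in a fit that called 0 of all tested probe sets for P8 against P3.

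Srebf2 itself read 6.29, 6.73 and 7.15 at P3 (lowest, median, highest), 6.42, 6.57, 6.29 and 6.84 at P8, and 7.01, 7.69, 7.47, 7.13 and 7.44 at P21. P21 lay above P8 without overlap and shared a small part of the P3 range. The change was 0.82 ± 0.20 (SE) from P8 to P21, a 1.77-fold rise (limma adjusted p = 0.0117), and 0.61 ± 0.18 (SE) from P3 to P21 (limma adjusted p = 0.0147). With the GAPDH covariate the P21 against P8 change was 0.79 (adjusted p = 0.0502).

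Srebf1, whose products favour fatty acid genes, was at 6.88 ± 0.23, 6.86 ± 0.51 and 6.80 ± 0.27 (SD) at P3, P8 and P21. Scap, the escort of both SREBPs, was at 7.72 ± 0.14, 7.88 ± 0.20 and 7.48 ± 0.33 (SD). Their changes lay between -0.39 and 0.16, and none passed.

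Of the 5 genes of transport, storage and removal Stard4 rose and Abca1 fell from P3 to P21, and the other 3 did not pass. By probe set 2 of 8 rose and 2 fell (25% each, background 18.6% and 18.2% of all tested probe sets), which is near the background. Stard4, a soluble protein that carries cholesterol between membranes and is a target of SREBP-2, had the largest rise of the 31 genes. Its level was 6.23, 6.75 and 7.48 at P3 (lowest, median, highest), 6.92, 6.49, 6.09 and 6.88 at P8, and 9.12, 8.61, 8.78, 8.35 and 9.06 at P21. P3 and P8 overlapped, and every P21 array was above both. Stard4 rose 3.96-fold from P3 to P21 (1.99 ± 0.25 SE, limma adjusted p = 1.89e-05) and 4.56-fold from P8 to P21 (2.19 ± 0.27 SE, limma adjusted p = 1.17e-04).

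Abca1, the transporter that loads cholesterol and phospholipid onto apolipoproteins at the cell surface, declined. The P3 arrays stood at 6.99, 7.28 and 8.11 (lowest, median, highest), the P8 arrays at 5.90, 5.72, 6.74 and 7.36, and the P21 arrays at 5.39, 6.00, 5.44, 5.47 and 5.73. P21 lay below all P3 arrays, and P8 was spread between them. Abca1 fell by 1.73 on the log2 scale from P3 to P21, or 3.32-fold (SE 0.28, limma adjusted p = 2.15e-04), and the steps of -0.91 and -0.82 through P8 did not pass (limma adjusted p = 0.0543 and 0.0861). Its further tested probe set also fell, by 0.63 (limma adjusted p = 0.0416).

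Cyp46a1, the hydroxylase that neurons use to clear cholesterol, was highest at P8. Its arrays read 6.78, 7.60 and 8.13 at P3 (lowest, median, highest), 8.58, 9.25, 8.55 and 8.49 at P8, and 8.01, 7.75, 8.05, 8.63 and 7.17 at P21. All 4 P8 arrays lay above P3, and 1 P21 array reached into the P8 range. Cyp46a1 rose 2.27-fold from P3 to P8 (1.18 ± 0.29 SE, limma adjusted p = 0.0137). This call was lost with the replicate number as a block (adjusted p = 0.0543). With the oligodendrocyte covariate its adjusted p was 0.907, in a fit that called 0 of all 21468 tested probe sets for P8 against P3. The loss under that covariate is therefore not particular to Cyp46a1. The later change of -0.80 to P21 and the overall change of 0.39 from P3 did not pass (limma adjusted p = 0.0829 and 0.275). With all 9 P8 arrays in 1 group the change from P3 to P8 was -0.81 (limma adjusted p = 0.348), since replicates 5 to 9 read 4.73, 5.38, 5.22, 5.46 and 4.84.

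Apoe, the main apolipoprotein of the brain and chiefly a product of astrocytes, ranged widely, at 7.58 ± 0.97 (SD, n = 6) at P3, 7.07 ± 0.49 (SD, n = 4) at P8 and 6.58 ± 0.52 (SD, n = 5) at P21. Its change from P3 to P21 did not pass (limma adjusted p = 0.0673). Astrocyte markers summed to 6142 to 11849 at P3 and 7305 to 9006 at P21, ranges that overlap. Soat1, which esterifies cholesterol for storage, was dim on most arrays, with a P8 SD of 2.26 that came from replicate 3 at 1.32, and no change passed.

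Of the 4 fatty acid and phospholipid genes Cds1 rose from P3 to P21 and the other 3 did not pass. By probe set 1 of 6 rose (16.7%, background 18.6% of all tested probe sets) and 0 fell (background 18.2%). Cds1 makes CDP-diacylglycerol, the precursor of phosphatidylinositol. It was at 8.46, 8.80 and 9.24 at P3 (lowest, median, highest), at 9.74, 7.90, 7.43 and 9.61 at P8, and at 10.06, 10.48, 10.40, 10.43 and 10.18 at P21. The 5 P21 arrays lay close together above all others, whereas the P8 arrays formed a high and a low pair. Cds1 rose by 1.48 ± 0.36 (SE) from P3 to P21, or 2.79-fold (limma adjusted p = 0.00486), and by 1.64 ± 0.40 (SE) from P8 to P21 (limma adjusted p = 0.0121).

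Fasn, the fatty acid synthase, was at 9.77 ± 0.21, 10.17 ± 0.22 and 10.22 ± 0.39 (SD) at P3, P8 and P21, and its change of 0.45 from P3 to P21 did not pass (limma adjusted p = 0.0657). Elovl6, an elongase of saturated fatty acids, differed by 0.13 and Scd, the stearoyl-CoA desaturase, by -0.71 (limma adjusted p = 0.747 and 0.0976).

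Different probe sets of 1 gene did not always give the same answer. Of 14 genes with more than 1 tested probe set, 10 had the same sign throughout for P21 against P3, 7 had the same call, and 0 had probe sets called in opposite directions. Stard4 had 3: 1392516_a_at, described above, 1386279_at, which rose by 1.49 (limma adjusted p = 4.11e-05), and 1396521_at, which changed by -0.59 (limma adjusted p = 0.14). The last of these read 5.49, 4.45, 3.91 and 5.36 at P8, below every P3 array (6.55 to 6.96), and fell by 1.91 from P3 to P8 (limma adjusted p = 0.00183) before a rise of 1.32 to P21 (limma adjusted p = 0.014). So all 3 rose from P8 to P21, and they differed in the step before it.

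Fdft1 had a further probe set, 1389906_at, that fell by 0.56 from P3 to P8 (limma adjusted p = 0.0241) and differed by -0.18 between P3 and P21 (limma adjusted p = 0.35), unlike the rise of 1.18 in the one described. The dimmer Insig2 probe set 1393690_at rose by 0.97 from P3 to P8 (limma adjusted p = 0.0175), as the brighter one did, but was close to its P3 level again at P21 (0.21, limma adjusted p = 0.5). For Sc5d the probe set 1390777_at also rose, by 0.88 (limma adjusted p = 0.0083), and the dimmer 1387926_at did not pass (0.40, limma adjusted p = 0.289). Which transcript or transcript end each probe set reads was not analysed here.

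**Figure D4:**
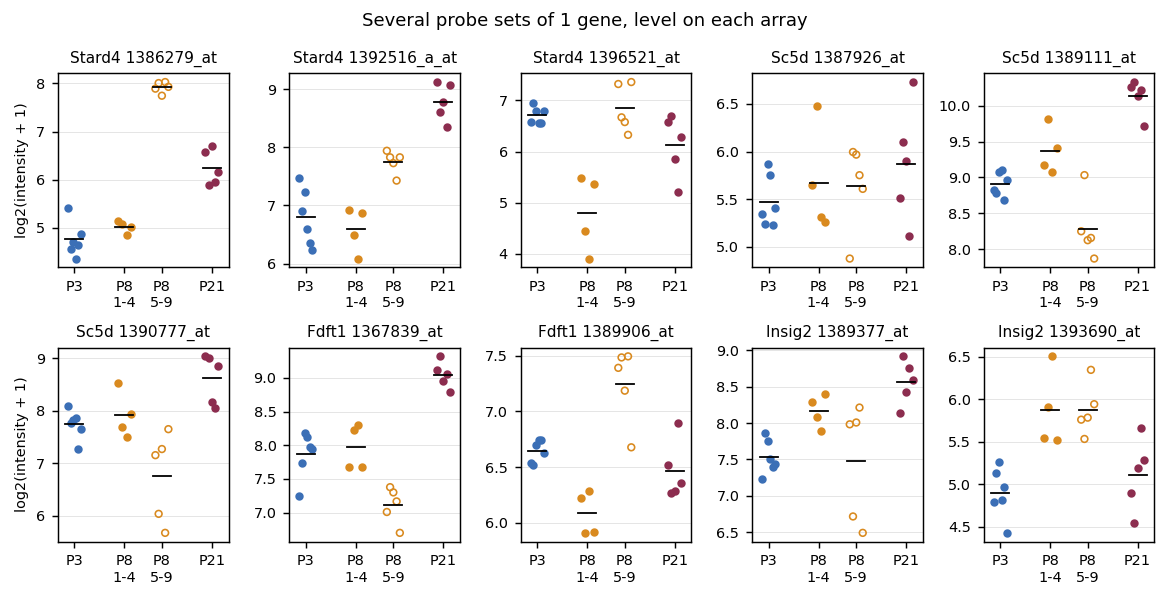
Level on each array, in log2(intensity + 1), for every probe set of Stard4, Sc5d, Fdft1 and Insig2; bars are group means and open points P8 replicates 5 to 9. The 3 Stard4 panels share a rise from P8 replicates 1 to 4 to P21, while 1396521_at is lowest at P8.

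P8 replicates 5 to 9 read these genes lower than replicates 1 to 4 of the same age. Of the 47 probe sets 17 lay below all of replicates 1 to 4 (36.2%, background 13.9%) and 8 lay above them (17%, background 24.3%). Read by each gene's brightest tested probe set, the largest differences were in Cds1 (-4.57), Sqle (-4.26), Scap (-4.16) and Cyp46a1 (-3.59). This probe set of Scap read 3.85, 3.04, 3.94, 3.95 and 3.83 in replicates 5 to 9 and 7.85, 7.90, 8.12 and 7.64 in replicates 1 to 4, while at P3 it ranged from 7.59 to 7.92. The 8 higher probe sets were the 3 of Stard4 and 1 each of Srebf1, Srebf2, Scap, Fdft1 and Abca1. The other probe set of Scap, 1384464_at, thus went the opposite way, with means of 7.14 in replicates 5 to 9 and 4.79 in replicates 1 to 4. For Stard4 and Srebf2 the brightest tested probe set was among the 8, by 1.16 and 0.91. The 45 control probe sets for bacterial and phage transcripts, which do not come from the animals, averaged 6.80 to 7.52 per array in replicates 5 to 9 and 4.07 to 4.48 on the other 15 arrays. The actin 3' minus 5' difference averaged 1.90 ± 0.72 (SD, n = 5) in them and 4.29 ± 0.19 (SD, n = 4) in replicates 1 to 4. The part of these measures in the differences was not tested. With all 9 P8 arrays as 1 group, limma called 4 probe sets higher and 7 lower for P8 against P3, 12 and 4 for P21 against P8, and 4 and 1 for P21 against P3, out of 48 tested. Over all probe sets of that fit the shares were 18.1% and 8.94%, 6.98% and 10.1%, and 4.96% and 6.09% in the same order.

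Outside the 33 genes, a list of 44 further genes of sterol synthesis and uptake, of which 33 were tested, had calls in both directions. From P3 to P21 5 rose and 5 fell (15.2% each, background 18.6% and 18.2%). From P3 to P8 1 rose and 5 fell (3.03% and 15.2%, background 6.96% and 7.61%), and from P8 to P21 5 rose and 2 fell (15.2% and 6.06%, background 7.97% and 7.93%), with median changes of 0.04, -0.11 and 0.19. The background counts probe sets, and by probe set this list had 17% and 12.8%, 6.38% and 14.9%, and 14.9% and 4.26% in the same order. Apod, a small lipid carrier of glia, rose by 4.39 ± 0.38 (SE) from P3 to P21 (limma adjusted p = 6.49e-07), from 3.49 to 4.97 at P3 through 5.83 to 7.59 at P8 up to 7.58 to 9.51 at P21. Mbtps2, the protease that completes the release of SREBP in the Golgi, was at 9.19 to 9.64 at P3, 6.56 to 8.28 at P8 and 8.22 to 9.13 at P21. It fell by 1.62 from P3 to P8 (SE 0.28, limma adjusted p = 0.00231) and rose by 1.00 to P21 (SE 0.30, limma adjusted p = 0.0311). Ubxn4, a protein of degradation at the endoplasmic reticulum, fell by 0.73 from P3 to P8 (limma adjusted p = 0.00901).

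A list of 64 genes of fatty acid and complex lipid synthesis, 56 of them tested, had more genes called higher than lower in each step. From P3 to P21 19 rose and 6 fell (33.9% and 10.7%, background 18.6% and 18.2%). From P3 to P8 6 rose (10.7%, background 6.96%), and from P8 to P21 9 rose and 6 fell (16.1% and 10.7%, background 7.97% and 7.93%). By probe set, as in the background, this list had 27.8% and 7.59%, 7.59% and 0%, and 15.2% and 7.59% in the same order. Those with the smallest p from P3 to P8 included genes of myelin lipids. Gal3st1, which makes sulfatide, rose by 2.16 ± 0.22 (SE) from P3 to P8 (limma adjusted p = 6.11e-05), and Ugt8, which makes galactosylceramide and is also an oligodendrocyte marker here, by 1.52 ± 0.38 (SE, limma adjusted p = 0.0158). Fa2h, the fatty acid hydroxylase of myelin galactolipids, rose by 1.00 from P3 to P8 and by 1.15 from P8 to P21 (limma adjusted p = 0.0298 and 0.0163).

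From P8 to P21 the genes with the smallest p of this list included 4 that rose. Elovl5, an elongase of polyunsaturated fatty acids, was at 9.50 to 9.95 at P3, 8.46 to 10.21 at P8 and 10.93 to 11.69 at P21. It rose by 2.01 ± 0.31 (SE) from P8 (limma adjusted p = 5.45e-04). Acss2, which makes acetyl-CoA from acetate, Degs1, the desaturase that completes ceramide, and Lpin1, a phosphatidate phosphatase, rose by 1.50, 1.46 and 1.42 in that interval (limma adjusted p = 4.04e-04, 8.94e-04 and 6.92e-04). Smpd1, the acid sphingomyelinase of lysosomes, rose in both steps, by 0.67 and 0.88 (limma adjusted p = 0.0141 and 0.00269).

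Fabp7 and Dgat2 fell. Fabp7, the fatty acid binding protein of radial glia and immature astrocytes, was at 11.33 to 11.64 at P3, 10.65 to 11.45 at P8 and 6.59 to 7.90 at P21, a fall of 3.59 from P8 (SE 0.25, limma adjusted p = 1.65e-06). Dgat2, which closes triglyceride synthesis, fell by 1.12 from P8 to P21 (SE 0.19, limma adjusted p = 9.56e-04). The genes named from these lists are those with the smallest p in each interval.

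**Figure D5:**
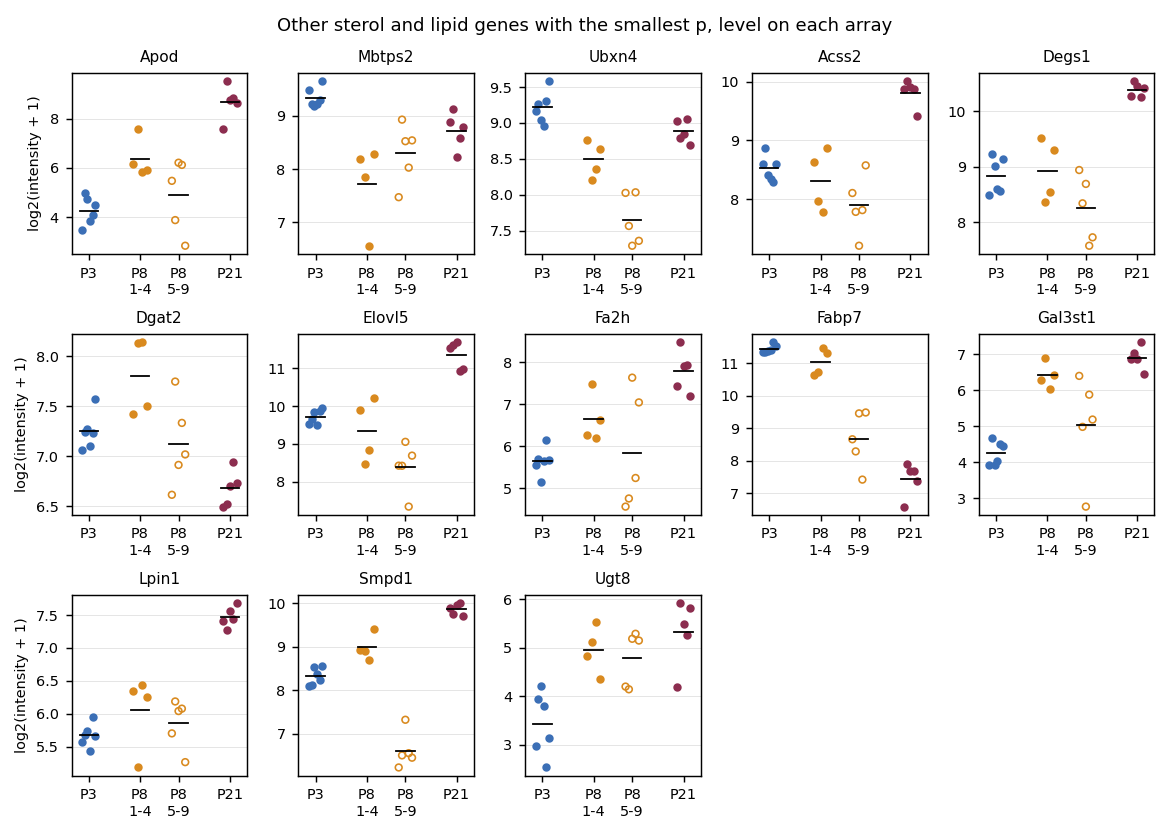
Level on each array, in log2(intensity + 1), for the 13 further sterol and lipid genes with the smallest p in any of the 3 comparisons; bars are group means and open points P8 replicates 5 to 9. Gal3st1 and Ugt8 are higher already at P8, Elovl5, Acss2, Degs1 and Lpin1 are higher at P21, and Fabp7 is lower at P21.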

How the data were processed

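Expression was measured on 20 arrays, of which the deposited table gives 1 linear intensity per probe set. The submitters' processing notes name GCRMA, which gives log2 values, so the maker of the linear intensities is unknown (not given in the sources here). Per the file's values, the mean intensity without the lowest and highest 2% was 100 on every array, so each array had been scaled as a whole by the authors before the deposited values were written. Scripts mapped all 20 columns to samples by name.

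Values were taken as log2(intensity + 1) and fitted by lmFit and eBayes of limma 3.58.1 (R 4.3.3), with age as the only factor, over P3, P8 replicates 1 to 4 and P21 in 1 fit of 15 arrays. Controls (57) and probe sets with several genes (436) were left out, and those above log2 4 on at least 5 of the 15 arrays were tested, 21468 in all. P-values were adjusted by Benjamini-Hochberg over all of them, and a call is an adjusted p under 0.05. Every adjusted p in the text is from limma. Replicate numbers did not pair the arrays: the deviations of 13 same-numbered pairs correlated at -0.06 to 0.08.

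The 33 genes, the lists and the markers were chosen with earlier results of these data known. A gene is given by array if it was called in some comparison, its ages did not overlap there and its higher group averaged at least log2 6. Of other lipid genes, the 6 with the smallest p in each comparison are named. The steps were checked on simulated data. Precision is limited by how many arrays each age has. The labels give biological replicates of 1 animal each and name no litters or dates. Alternatives were other filters, a pseudocount of 16, quantile normalization, array medians, 1 probe set per gene, a variance trend, the replicate number as a block, covariates, other array sets, and each array left out.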

Additional observations from a re-analysis of the deposited data

Results flagged for a closer look

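In 11 of 124 groups of arrays tried, 1 array lay far from the others of its group by Dixon's gap test at the 95% level, where chance alone gives about 1 in 20. P8 replicates 1 to 4 and 5 to 9 were taken as separate groups, and each gene was read from its brightest tested probe set, in log2(intensity + 1).

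Among P8 replicates 1 to 4, replicate 2 was high for the sterol oxidase Msmo1 (9.43, with the others at 8.67 to 8.75) and for the cholesterol hydroxylase Cyp46a1 (9.25, with the others at 8.49 to 8.58). Replicate 4 was low for the kinase Pmvk (8.20, against 8.46 to 8.48), and replicate 3 was low for the cholesterol esterifying enzyme Soat1 (1.32, against 5.59 to 6.14).

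At the other ages, P21 replicate 4 was low for Idi1 (8.11, against 8.48 to 8.62) and P21 replicate 2 for Srebf1 (6.32, against 6.87 to 6.98). P3 replicate 5 was high for Abca1 (8.11, against 6.99 to 7.33).

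Within P8 replicates 5 to 9, replicate 6 was high for Mvk (7.27, against 6.14 to 6.37) and low for Scap (3.04, against 3.83 to 3.95). Replicate 9 was high for Dhcr7 (8.26, against 6.99 to 7.28), and replicate 8 was low for Fasn (8.66, against 9.19 to 9.31). Replicates 5 to 9 enter the comparisons between ages above only where all 9 P8 arrays are named.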

How the results depend on the processing

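Counts are of the tested probe sets called by limma (47, or 48 in the fits with all 20 arrays), which were 20 for P21 against P3, 7 for P8 against P3 and 11 for P21 against P8. Of 19 results on single genes, all 19 kept direction and call under 3 other filters, a pseudocount of 16, quantile normalization, subtracted array medians, 1 probe set per gene and a variance trend.

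With all 20 arrays and P8 as 1 group of 9, the counts for P21 and for P8 against P3 were 5 and 11. Of all tested probe sets 11% and 27.1% were called there. The medians for P8 against P3 and P21 against P8 were -0.24 and 0.58, and Cyp46a1 reversed between P3 and P8 (-0.81, adjusted p = 0.348). With P8 replicates 5 to 9 as a group of their own, 3 were called for P8 against P3 and 5 for P21 against P8. In that fit 4.92% and 6.91% of all tested probe sets were called. With only the 2 ages in the fit, 5 were called for P21 against P8. The share of all tested probe sets in that fit is not given here, so its lower count cannot be called particular to these genes. The replicate block, which does not follow a pairing seen in the arrays, left 1 call for P8 against P3 (7.36% of all tested) and took those of Insig2 and Cyp46a1 (adjusted p = 0.0995 and 0.0543).

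With the oligodendrocyte covariate the counts were 0, 0 and 7, and 0.0978%, 0% and 11.5% of all tested probe sets were called. The mean marker level did not overlap between P3 (4.74 to 5.89) and P8 (7.05 to 7.98), so that fit can hardly tell it apart from age. At an unadjusted p under 0.05 the 0 for P8 against P3 became 1 higher and 3 lower, and 6.34% of all tested probe sets passed. Insig2 reversed for P8 against P3 (-0.087, adjusted p = 0.988). With the GAPDH covariate 12 were called for P21 against P3, and 20.1% of all tested probe sets were. Of the 19 gene results, 9 lost their call or reversed with P8 as 1 group, 5 with replicates 5 to 9 as their own group, 2 with only the 2 ages, 2 under the block, 14 with the oligodendrocyte covariate and 4 with the GAPDH covariate. The cause of these changes was not tested.

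Leaving out each array in turn gave 15 to 21, 3 to 8 and 9 to 14 calls in the same order of comparisons, and medians of 0.21 to 0.34, -0.07 to 0.04 and 0.22 to 0.33. The count for P8 against P3 was 3 without P3 replicate 5 and 4 without P3 replicate 4 or 6 or P8 replicate 1, 2 or 3. Shares of all tested probe sets are not given for these fits. Fewer calls among these genes can therefore not be told apart from fewer calls over the whole array. The few arrays per age and dim signal, as in Ebp and Soat1, limit what these comparisons can separate.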
